A study of Mus musculus with 23 samples.

Results

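The Myrf, Dagla and Syt7 locus is a 270 kb stretch of mouse chromosome 19, chr19:10270001-10540000 in the genome build mm9. It was followed through lists of chromatin regions enriched for H3K27ac, an acetylation of a histone that marks enhancers and promoters in use, and for H3K4me2, a dimethylation of the same histone that marks enhancers and promoters more broadly. Its members were all listed regions that overlapped the window by at least 1 bp. There were 100 of them among 334051 regions in all, and 55 of the 100 stood in an enhancer list. The locus was singled out because medial entorhinal cortex had many H3K27ac enhancer regions there that no other subregion listed as enhancers. That number is therefore given as a description, and nothing below rests on a test. An ACC H3K27ac region that ended at the low edge touched the window and was left out, and the nearest beyond the high edge, an RSC H3K27ac region, began 3.025 kb away. Nearest inside were LEC regions, 7.075 kb from the low edge and 0.95 kb from the high one.

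The tissue was cortex of C57BL6J mice at postnatal day 56, dissected as medial entorhinal cortex (MEC), anterior cingulate cortex (ACC), retrosplenial cortex (RSC) and lateral entorhinal cortex (LEC). It was cut from unstained brain sections on both sides by its architecture, and the labels give no genotype, treatment or sex. Each subregion and mark had a full list of enriched regions and an enhancer list drawn from it, which makes 16 lists. Regions in the full list but not in the enhancer list are called excluded regions here, since the sources used here do not give the rule that removed them. The labels describe 2 libraries per subregion and mark, but 1 library for MEC H3K4me2, and input libraries besides. The lists join the libraries of a group, and their names call the regions reproducible. There is thus no value per animal, no replicate error and no test between subregions, and the depth behind each list is unknown. A region missing from a list was not listed there, which does not show that the mark was absent. In dissected tissue, fewer cells of a type and less of the mark per cell cannot be told apart.

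Myrf encodes a membrane-bound transcription factor that oligodendrocytes need to make and keep myelin. Dagla encodes diacylglycerol lipase alpha, the main enzyme that makes the endocannabinoid arachidonoylglycerol in neurons, where it acts as a signal back across the synapse. Syt7 encodes synaptotagmin 7, a calcium sensor with high affinity that supports delayed transmitter release and facilitation at synapses. Oligodendrocytes, neurons and other cells were all part of the dissected tissue. In the mouse, Myrf and Dagla are read towards lower coordinates and Syt7 towards higher ones. In the gene order of the assembly GRCm38.p6, Fen1, a nuclease of DNA replication and repair, and Tmem258, a subunit of the enzyme that attaches sugars to proteins in the endoplasmic reticulum, precede Myrf. Dagla follows Myrf, the long non-coding RNA genes Gm30042 and Gm30263 come next, and Syt7 and Lrrc10b follow. Only names and order were taken from that assembly, since it is not the build of the lists.

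**Figure D1:**
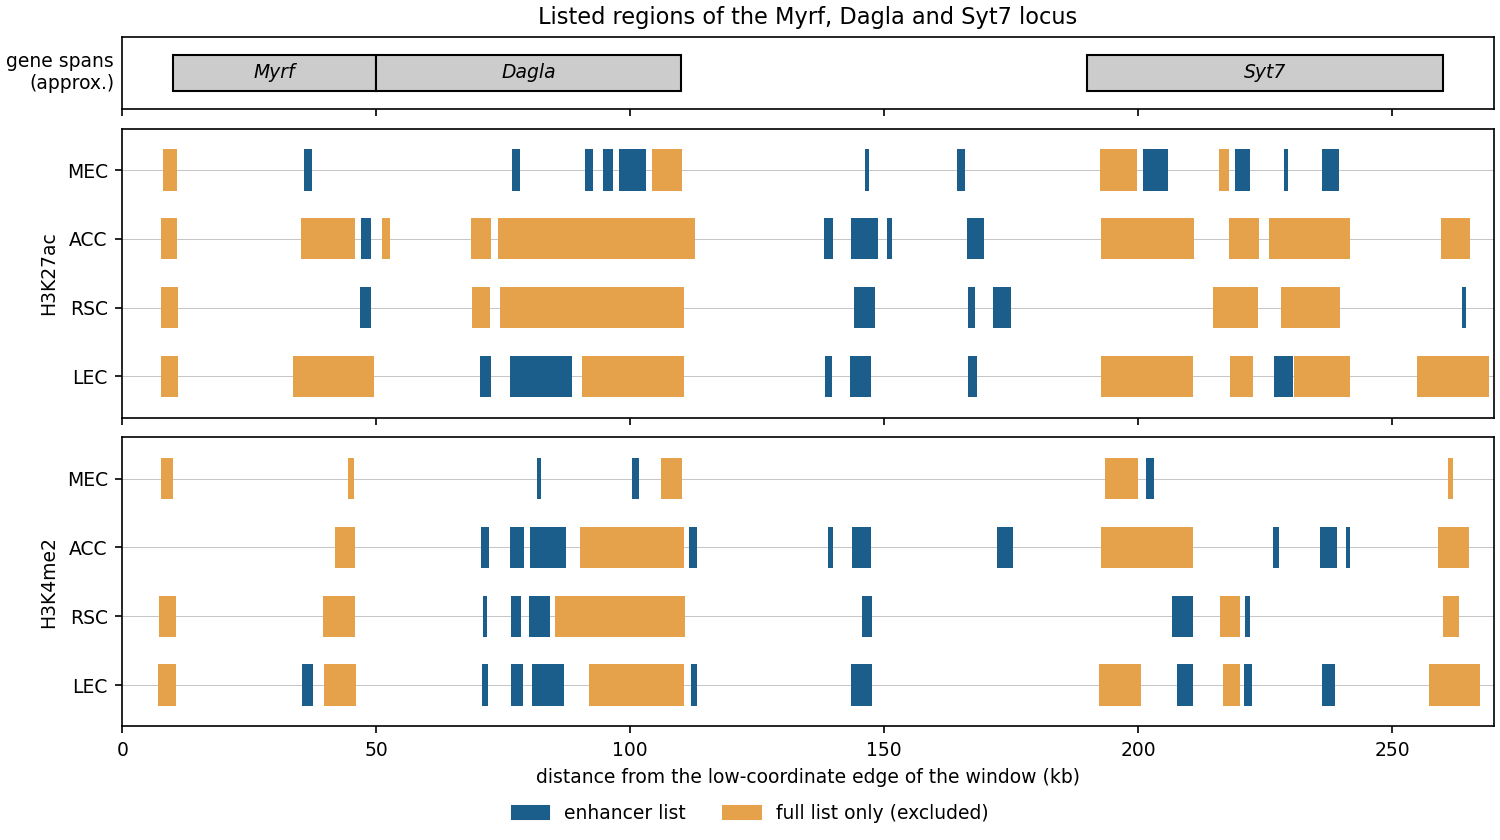
Listed regions of the window along the distance from its low-coordinate edge in kb, with H3K27ac above and H3K4me2 below and a row for each subregion. Blue bars are regions of the enhancer list, orange bars are excluded regions, and grey boxes are the approximate gene spans. For each mark, broad orange bars of ACC, RSC and LEC over Dagla stand below the short separate bars of MEC in the top row.

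Approximate gene spans were used to divide the window, with Myrf at about 10.28 to 10.32 Mb, Dagla at about 10.32 to 10.38 Mb and Syt7 at about 10.46 to 10.53 Mb. Excluded regions lay towards the end of each approximate span where the gene is read from. The gene starts themselves were not placed. Excluded regions also lay elsewhere, as inside Syt7 and at the low edge of the window, so they do not by themselves mark a gene start. At the upper end of the Dagla span, chr19:10374326-10380225 was excluded for H3K27ac in all 4 subregions, and chr19:10376076-10380225 was excluded for H3K4me2 in all 4. At the upper end of the Myrf span, chr19:10314526-10315575 was excluded for H3K4me2 in all 4. At the lower end of the Syt7 span, chr19:10462701-10469675 was excluded for H3K27ac in MEC, ACC and LEC, and chr19:10463451-10469875 was excluded for H3K4me2 in the same 3 subregions. RSC listed no region of either mark over these Syt7 stretches. These positions are what ties the named genes to the lists, which carry no gene names themselves. At the low edge of the window, chr19:10278001-10280700 was excluded for H3K27ac in all 4 subregions. It lies at the lower end of the Myrf span, on the side where Tmem258 and Fen1 are the next genes.

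MEC was narrowly highest in the H3K27ac enhancer lists and clearly lowest in the full lists. The MEC H3K27ac enhancer list held 11 regions covering 26.7 kb of the window, against 5 regions covering 13.35 kb in ACC, 5 covering 11.9 kb in RSC and 6 covering 25.25 kb in LEC. MEC was thus highest, but only 1.475 kb above LEC, and this lead did not hold under every setting. The difference was -0.2 kb when regions under 1000 bp were left out and -0.7 kb with the window widened by 50 kb on each side. It was -3.225 kb with regions joined across gaps of up to 2 kb, bridged gaps counted. In the full lists the order turned round: MEC had 15 H3K27ac regions covering 44.6 kb, against 14 covering 117.2 kb in ACC, 10 covering 75.8 kb in RSC and 13 covering 112.4 kb in LEC. MEC was then lowest, and MEC minus ACC was -72.65 kb.

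The genome was tiled in windows of the same width to show how common this is. MEC covered more H3K27ac enhancer bases than each other subregion in 510 of 7011 windows that held any such region, or 7.27%. In 96 of them, or 1.37% of the 7011, MEC also covered the fewest bases in the full lists, as it did here. Because the locus was chosen for its MEC enhancer regions, nothing is read from the 7.27% or the 1.37%. Its place among the 96 also rests on the enhancer lead of 1.475 kb, which turned negative under some settings. Being lowest in the full lists is common, since MEC was so in 5044 of 7570 windows with any H3K27ac region, or 66.6%. The MEC lists are the shortest, with 22848 H3K27ac regions in the full list, where ACC has 48266, RSC 41584 and LEC 42136. With each list cut to its widest regions, as many as the MEC list holds, MEC minus the highest other subregion was -66.3 kb in the full lists and 6.775 kb in the enhancer lists.

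**Figure D2:**
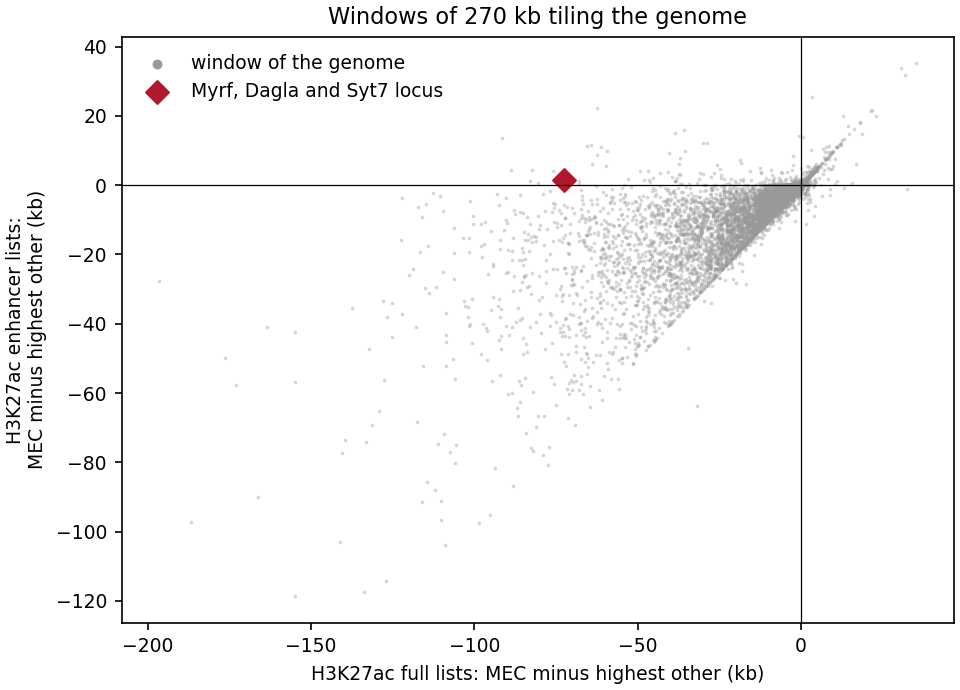
Windows of 270 kb tiling the genome, each a grey point, with the bases covered by MEC minus those of the highest other subregion in kb, in the H3K27ac full lists on the x axis and the enhancer lists on the y axis. The locus, a red diamond at -72.65 and 1.475 kb, lies above 0 in the enhancer lists and far left of 0 in the full lists, where few windows lie. Its place is given as a description, since the locus was chosen for its MEC enhancer regions.

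The locus was rich in H3K27ac in ACC, RSC and LEC when full lists were counted. As many bases or more were covered in 2.13% of 7570 windows for MEC, 1.66% for ACC, 3.51% for RSC and 0.766% for LEC. The 44.6 kb of the MEC full list include the 26.7 kb of enhancer regions the locus was chosen for. Nothing is therefore read from the MEC value of 2.13%. In the MEC enhancer list as many bases or more were covered in 166 of the 7570 windows, a rank that follows from how the locus was chosen. The share was 27% for ACC, 24.9% for RSC and 9.33% for LEC, so the enhancer lists of ACC and RSC were unremarkable here.

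H3K4me2 gave MEC no lead in either kind of list. The MEC enhancer list had 3 regions covering 3.75 kb, against 10 covering 25.9 kb in ACC, 6 covering 13.65 kb in RSC and 9 covering 24.3 kb in LEC. Its full list covered 18.98 kb, against 74.75 kb in ACC, 56 kb in RSC and 74.1 kb in LEC. MEC was lowest for H3K4me2 in 70.2% of 7671 windows in the enhancer lists and in 76.5% of 7992 windows in the full lists, so its place here is the usual one.

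**Figure D3:**
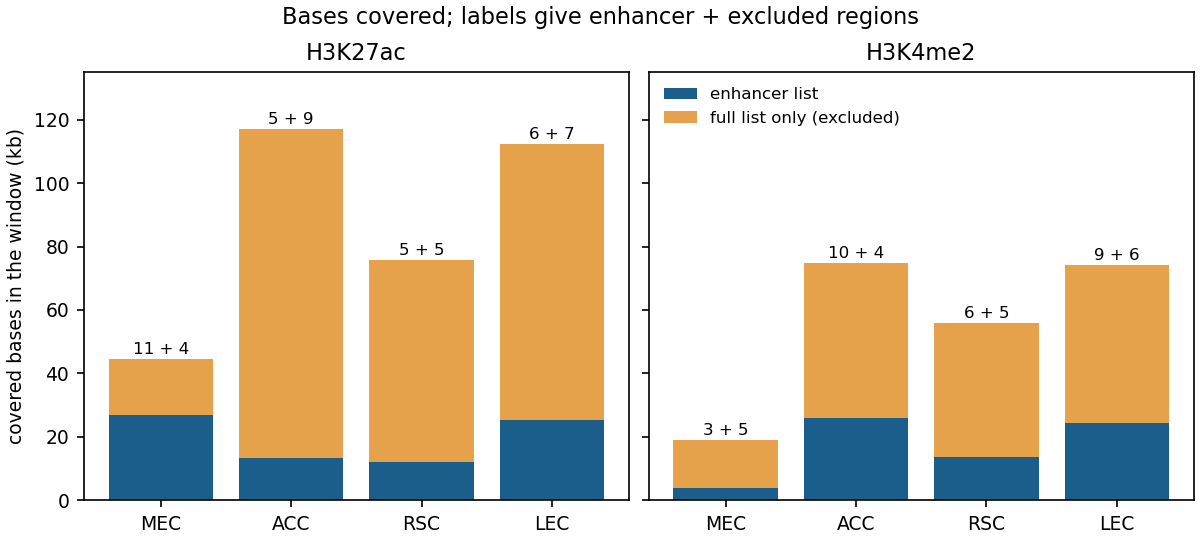
Bases of the window covered by listed regions, in kb, for H3K27ac on the left and H3K4me2 on the right. Blue is the enhancer list, orange the excluded regions, and the labels give the number of enhancer plus excluded regions. MEC has the tallest blue part for H3K27ac, at 26.7 kb, and the shortest whole bar, at 44.6 kb.

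Excluded regions made up 4 of the 15 full-list H3K27ac regions of MEC, where 52.1% of the whole list was excluded. A window chosen for many MEC enhancer regions has a low MEC share by that choice, so nothing is read from it. In ACC 9 of 14 were excluded, against 42.2% of its list, in RSC 5 of 10, against 41.6%, and in LEC 7 of 13, against 45.5%. For H3K4me2 the excluded regions numbered 5 of 8 in MEC, against 50.0% of its list, 4 of 14 in ACC, against 37.2%, 5 of 11 in RSC, against 38.4%, and 6 of 15 in LEC, against 39.6%. With so few regions each, these shares describe the window and no more.

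Of the 11 MEC H3K27ac enhancer regions, 8 met no H3K27ac enhancer region of another subregion, where 20.0% of the whole MEC list did so. The same count was 1 of 5 in ACC, against 22.9% of its list, 2 of 5 in RSC, against 20.4%, and 1 of 6 in LEC, against 20.2%. The locus was chosen on the MEC count, so nothing is read from it. The full lists tell where these 8 regions stand elsewhere. Of the 8, 7 lay in an excluded H3K27ac region of at least 1 other subregion, where 49.6% of such MEC regions did so over the genome. Excluded regions of all 3 other subregions held 5 of the 8, where 36.9% did so over the genome. Those of the 5 at Dagla were neighbours inside the same excluded region of ACC, of RSC and of LEC. They are not separate cases, so these counts are given as a description. Only 1 of the 11 met no H3K27ac region in any full list elsewhere, against 10.1% of the MEC list.

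Base by base, the MEC enhancer regions met few enhancer regions elsewhere, which restates how the locus was chosen and is given as a description. ACC enhancer regions covered 3.37% of the MEC H3K27ac enhancer bases of the window, against 56.8% over the genome. RSC enhancer regions also covered 3.37%, against 63.0%, and LEC ones 12.25%, against 52.8%. In the full lists, ACC regions covered 91.4% of the MEC bases of the window, against 77.1% over the genome. LEC regions covered 91.4%, against 74.8%, and RSC regions 65.45%, against 81.2%. Of the 103.9 kb that ACC excluded in the window, 24.2 kb were enhancer bases in MEC. It was 17.6 kb of the 63.9 kb that RSC excluded and 21.8 kb of the 87.15 kb that LEC excluded. This was not particular to MEC, since LEC alone listed as enhancer 14.275 kb that ACC and RSC both excluded. Enhancer bases of any other subregion made up 39.1% of the bases ACC excluded, against 11.4% over its whole list. The share was 49.9% in RSC, against 9.50%, and 28.4% in LEC, against 8.08%. The MEC part of these shares follows from how the locus was chosen.

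**Figure D4:**
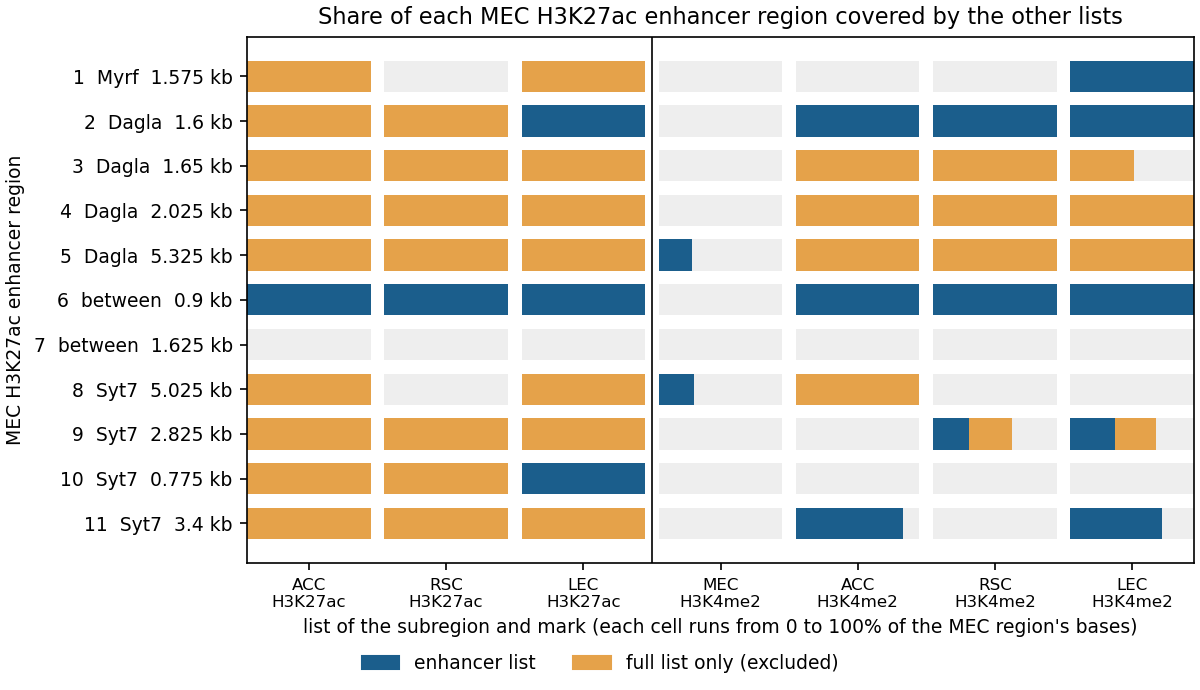
The 11 MEC H3K27ac enhancer regions from the low to the high edge of the window, by segment and width, against the other H3K27ac lists and the H3K4me2 lists. Each cell runs from 0 to 100% of the region's bases, blue where an enhancer region covers them, orange where an excluded region does and grey where none does. Most H3K27ac cells are orange in full, and the seventh region is grey throughout.

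At Myrf, H3K27ac divided the subregions into pairs. MEC and RSC listed no excluded region over the end where the gene is read from, and ACC and LEC listed broad ones. MEC had a single enhancer region inside the gene span, chr19:10305726-10307300, 1.575 kb wide. It lay wholly in the excluded regions chr19:10305251-10315725 of ACC, 10.475 kb wide, and chr19:10303576-10319450 of LEC, 15.875 kb wide. RSC had a single enhancer region, chr19:10316776-10319000, nearly the same as the ACC enhancer region chr19:10317026-10319000. Of the Myrf span, listed H3K27ac regions covered 5.69% for MEC, 32.9% for ACC, 7.94% for RSC and 42% for LEC. Enhancer regions alone covered 3.94% for MEC, 4.94% for ACC, 5.56% for RSC and 0% for LEC, so MEC did not lead here.

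H3K4me2 did not divide the subregions in this way at Myrf. All 4 listed an excluded region at the end where the gene is read from, 1.05 kb wide in MEC, 3.975 kb in ACC, 6.275 kb in RSC and 6.225 kb in LEC. LEC alone listed H3K4me2 as an enhancer region within the span, chr19:10305376-10307450, and the MEC H3K27ac enhancer region of Myrf lay inside it. MEC listed no H3K4me2 there. Myrf is a gene of oligodendrocytes, and the share of these cells in each dissection was not measured here.

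Dagla carried the broadest regions of the locus, and MEC divided them. For H3K27ac, MEC listed 5 separate regions over the gene. The enhancer regions were chr19:10346726-10348325 of 1.6 kb, chr19:10361051-10362700 of 1.65 kb, chr19:10364651-10366675 of 2.025 kb and chr19:10367701-10373025 of 5.325 kb, the widest MEC enhancer region of the window. The excluded region followed at chr19:10374326-10380225. Gaps of 1950, 1025 and 1300 bp separated the last 4 of them. All 4 MEC enhancer regions lay wholly within listed H3K27ac regions of ACC, RSC and LEC, and the first lay in the LEC enhancer region.

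In ACC and RSC the same stretch was a single excluded H3K27ac region, the widest of each list in the window. ACC listed 38.8 kb, chr19:10344026-10382825, and RSC 36.3 kb, chr19:10344276-10380600. Few regions are this wide: 120 of 48266 in the ACC list and 72 of 41584 in the RSC list were at least as wide. LEC divided the stretch into an enhancer region of 12.25 kb, chr19:10346376-10358625, and an excluded region of 20.1 kb, chr19:10360451-10380550. That enhancer region was the widest LEC enhancer region of the window, and 303 regions of the LEC enhancer list were as wide or wider. MEC covered 27.1% of the Dagla span in all, where ACC covered 69.1%, RSC 65.6% and LEC 56.5%. With H3K27ac enhancer regions alone, LEC covered more of the span than MEC, 23.9% against 17.7%, and ACC and RSC covered 0%.

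The H3K4me2 pattern at Dagla was similar in ACC, RSC and LEC. MEC had an excluded region of 4.15 kb at the end where the gene is read from, against 20.6 kb in ACC, 25.55 kb in RSC and 18.8 kb in LEC. Only 40 of 46552 regions of the RSC list were as wide as the RSC one. Further inside the gene, chr19:10351576-10352425 was the only stretch that all 4 subregions listed as an H3K4me2 enhancer. MEC also listed chr19:10370326-10371775 as an H3K4me2 enhancer of 1.45 kb, within its widest H3K27ac enhancer region. In ACC, RSC and LEC these bases were part of the broad excluded H3K4me2 regions.

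The 80 kb between Dagla and Syt7 held 2 of the 11 H3K27ac enhancer regions of MEC, against 4 of 5 in ACC, 3 of 5 in RSC and 3 of 6 in LEC. Listed H3K27ac enhancer regions there covered 2.525 kb in MEC, 11.4 kb in ACC, 9.0 kb in RSC and 7.175 kb in LEC. The only stretch that all 4 subregions listed as an H3K27ac enhancer, chr19:10416151-10417050, was here. It was the whole MEC region of 0.9 kb and part of wider regions elsewhere: the ACC one, chr19:10413551-10418750, and the RSC one, chr19:10414001-10418125, were the widest enhancer regions of these subregions in the window. On both sides of it ACC, RSC and LEC were listed and MEC was not, over chr19:10414001-10416150 and chr19:10417051-10417300. MEC listed no H3K4me2 over its region, and ACC, RSC and LEC listed all of it as an H3K4me2 enhancer.

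After a MEC gap of 17200 bp the subregions differed in position. MEC had an H3K27ac enhancer region of 1.625 kb at chr19:10434251-10435875, and ACC, RSC and LEC shared an enhancer stretch of 1.375 kb at chr19:10436526-10437900, where MEC listed none. The MEC region ended 475 bp before the nearest H3K27ac region of the others. It was the single MEC region that no other subregion listed for H3K27ac, and no subregion listed H3K4me2 over it. RSC alone had an H3K27ac enhancer region at chr19:10441501-10445000, 3.5 kb wide. ACC listed H3K4me2 there, at chr19:10442126-10445300, and RSC did not.

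At the start of Syt7 the RSC lists stood apart from the other 3. MEC had an excluded H3K27ac region of 7.175 kb, chr19:10462501-10469675, and, after a gap of 1175 bp, an enhancer region of 5.025 kb, chr19:10470851-10475875. ACC listed nearly all of this and more as a single excluded region of 18.3 kb, chr19:10462701-10481000, and LEC as one of 18.15 kb, chr19:10462651-10480800. RSC listed no H3K27ac region over any of it. For H3K4me2, MEC listed 6.425 kb at the start as excluded, ACC 18.1 kb and LEC 8.125 kb, and the only RSC region nearby was an enhancer region further inside, chr19:10476651-10480775.

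**Figure D5:**
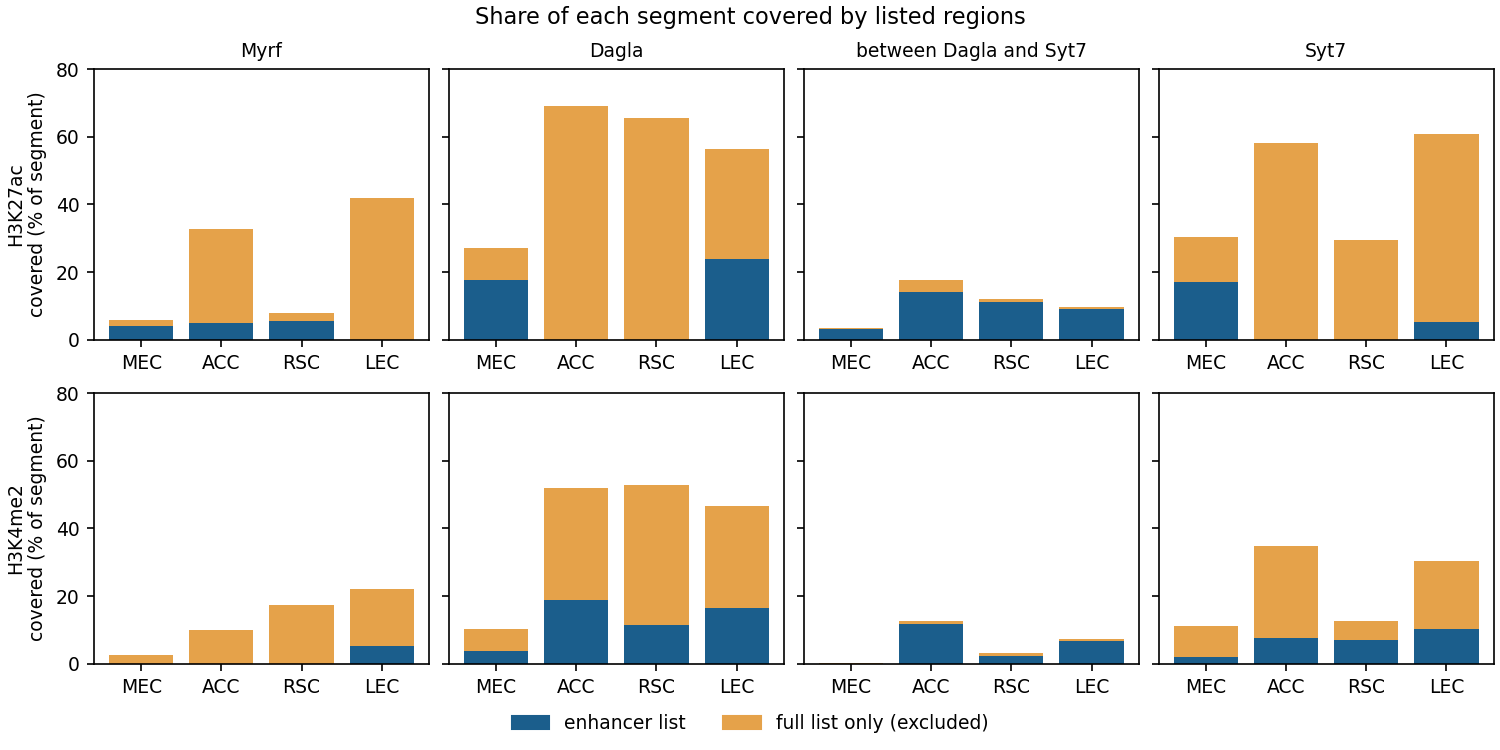
Share of the Myrf, Dagla and Syt7 spans and of the stretch between Dagla and Syt7 covered by listed regions, in percent, with H3K27ac above and H3K4me2 below. Blue is the enhancer list and orange the excluded regions. The blue H3K27ac part of MEC over Syt7 is 17.2%, where ACC and RSC have none.

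Inside Syt7 the other subregions listed excluded regions where MEC listed enhancers. MEC enhancer regions were chr19:10489126-10491950 of 2.825 kb, chr19:10498626-10499400 of 0.775 kb and chr19:10506151-10509550 of 3.4 kb. The first and the last lay wholly in excluded regions of ACC, RSC and LEC, which in all 3 covered chr19:10488101-10492550 and chr19:10500601-10509775. Over chr19:10498626-10499400, ACC and RSC were excluded and LEC had an enhancer region of 3.75 kb. MEC also had an excluded region of 2.075 kb, chr19:10485826-10487900, and its last 75 bp, chr19:10487826-10487900, were excluded in ACC and RSC too. MEC covered 17.2% of the Syt7 span with H3K27ac enhancer regions, against 0% in ACC and RSC and 5.36% in LEC. Counting full lists, MEC with 30.4% was close to RSC with 29.4%, and ACC with 58.2% and LEC with 60.8% were higher.

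MEC H3K4me2 was thin over the MEC H3K27ac enhancer regions of Syt7, and which other subregions listed more differed from region to region. MEC listed 1 H3K4me2 enhancer region there, chr19:10471576-10473025, 1.45 kb wide, within its H3K27ac enhancer region near the start. ACC had these bases in its broad excluded H3K4me2 region, and RSC and LEC did not list them. ACC H3K4me2 covered 100% of that MEC H3K27ac region and MEC H3K4me2 28.9%, where RSC and LEC covered 0%. Over chr19:10489126-10491950, MEC and ACC listed no H3K4me2. RSC covered 29.2% of it with enhancer and 34.5% with excluded H3K4me2 regions, and LEC covered 36.3% with enhancer and 32.7% with excluded ones. Over chr19:10498626-10499400, no subregion listed H3K4me2. At chr19:10506151-10509550, MEC and RSC listed no H3K4me2, and enhancer regions of ACC covered 86.8% and those of LEC 74.3% of the MEC H3K27ac region. Beyond Syt7, on the side of Lrrc10b, chr19:10530901-10532075 was excluded for H3K4me2 in all 4 subregions. H3K27ac was listed as excluded over that stretch in ACC and LEC only.

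In each subregion, a smaller share of the H3K27ac enhancer regions carried its own H3K4me2 in the locus than in the whole list. The count was 2 of 11 in MEC, where 35.6% of the whole MEC list did so. It was 2 of 5 in ACC, against 63.4% of its list, 1 of 5 in RSC, against 55.8%, and 3 of 6 in LEC, against 62.9%. The gap was thus not particular to MEC, and counts this small describe the window and no more. H3K4me2 of other subregions was more often listed over the MEC regions, with ACC over 7 of the 11, RSC over 6 and LEC over 8. These lists are longer than the MEC H3K4me2 list, which rests on 1 library. Among H3K4me2 enhancer regions, 2 of 3 in MEC met no H3K4me2 enhancer region elsewhere, against 32.6% of the whole list. The count was 4 of 10 in ACC, against 20.8%, 0 of 6 in RSC, against 16.1%, and 1 of 9 in LEC, against 16.2%. Both of the MEC ones lay in an excluded H3K4me2 region of at least ACC.

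Some MEC enhancer regions of Dagla and Syt7 stood close to excluded ones, 3 of the 11 within 2 kb. The full lists were therefore also joined across gaps of up to 2 kb, an added setting taken up once these gaps had been seen. An enhancer region was then kept only when nothing excluded was joined to it. Of the MEC H3K27ac enhancer regions, 5 of 11 were joined to an excluded region, where 4.25% of the whole list was. These were 3 of Dagla and 2 of Syt7, and those of Dagla further than 2 kb from the excluded region were joined through the enhancer regions between. The gap width was set with these MEC distances known, so nothing is read from the MEC count. It was 1 of 5 in ACC, against 6.88% of its list, 0 of 5 in RSC, against 5.66%, and 2 of 6 in LEC, against 6.04%. The joined H3K27ac enhancer regions then covered 9.875 kb in MEC, 13.1 kb in ACC, 11.9 kb in RSC and 9.25 kb in LEC, so MEC no longer led. Bridged gaps are counted in these values, and the ACC one holds an unlisted gap of 1.725 kb.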

How the data were processed

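Bowtie 1.1.1 and bedtools 2.19.0 are named, with the build mm9, per the submitters' processing notes. How peaks were called, how libraries were joined and how enhancer lists were drawn is not stated in these sources. The names of the lists call the regions reproducible, also for MEC H3K4me2 with its 1 library, and how this was judged is not stated. The deposited lists give region starts and ends on a grid of 25 bp, and the deposited score equals the region's width (0 exceptions), so it holds no enrichment. Of 17 lists, 1 was a byte-for-byte copy and was left out. Regions and covered bases were counted with Python 3.11.15, overlaps needing 1 bp, checked with bedtools 2.31.1 and tested on simulated lists. Coordinates are 1-based. Gene spans are approximate. The coordinates printed are, by rule, MEC H3K27ac enhancer regions, stretches excluded for H3K27ac in 3 or more subregions, the widest H3K27ac enhancer regions, H3K4me2 enhancer stretches of all 4 subregions or MEC alone, and H3K27ac enhancer stretches of ACC, RSC and LEC without MEC. Other coordinates were chosen after their values were seen. Members, rules and settings were chosen with earlier results of these data known. Alternatives were a minimum width, lists of equal length, a wider window, regions wholly inside it, larger overlaps, full lists and joining. No sequence was read, since no mm9 genome was used here.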

Additional observations from a re-analysis of the deposited data

How the results depend on the processing

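The H3K27ac enhancer lead of MEC over the highest other subregion, 1.475 kb, depended on the setting. It became -0.2 kb with regions of at least 1000 bp and -0.7 kb with the window widened by 50 kb on each side. With regions joined across gaps of up to 2 kb, bridged gaps counted, it became -3.225 kb. Joining was a setting added after the data had been examined. MEC was not highest under these settings. The lead was 6.775 kb with each list cut to its widest regions, as many as the MEC list holds. The 8 MEC regions with no H3K27ac enhancer region elsewhere became 1 against the full lists and 5 when regions were joined. They stayed 8 under the other 4 settings. Joining kept only 6 MEC enhancer regions, so the count went from 8 of 11 to 5 of 6, but not with the same regions. All 5 MEC enhancer regions removed by joining were among the 8. The 5 counted after joining included chr19:10346726-10348325 and chr19:10498626-10499400, which had met LEC enhancer regions before. Joining removed those LEC regions too, so nothing is read from the share of 5 of 6. The 2 MEC regions carrying MEC H3K4me2 became 0 when 50% of the region had to be covered, and stayed 2 under the other 3 settings. The deficits of MEC in the H3K27ac full lists and in both H3K4me2 lists kept their direction and moved by less than 1.5 times under each setting run. The cause of these changes beyond the construction of each setting was not tested. No paired analysis was possible because the lists join the libraries of a group and carry no replicate, which also prevented leaving out a library. The depth behind the lists is unknown.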
